A study of Mus musculus with 3 samples.

Results

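Proliferating CD8 T cells of mouse tumours were taken from a single-cell experiment on T cells that infiltrated subcutaneous MC38-Ova or B16-Ova tumours. A cell was a member when it had at least 2 UMIs (unique molecular identifiers, each 1 captured RNA molecule) of Cd8a and Cd8b1 together, none of Cd4 or Foxp3, and a score of at least 5, the score being the sum of its Mki67, Top2a and Birc5 UMIs. Members numbered 492, with 217 from MC38-Ova and 275 from B16-Ova tumours. They stood among 4336 cells that passed the same CD8 gate and among 14992 cells that carried 1 tumour's hashtag. They are set against the 2677 CD8-gated cells with a score of 0, of which 1645 came from MC38-Ova and 1032 from B16-Ova. The remaining 1167 CD8-gated cells had a score of 1 to 4. Members were thus chosen by measured UMIs of Mki67, Top2a, Birc5, the CD8 genes, Cd4 and Foxp3. For that reason, and because every gene was read in the same cells, all differences between members and score-0 cells are descriptions and carry no test.

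All mice were C57BL/6, and MC38-Ova (a colon carcinoma line) and B16-Ova (a melanoma line) both express the model antigen ovalbumin. Tumours were taken on day 14, T cells were sorted as TCRβ+ CD3+ CD90.2+ CD11b-, and both pools were tagged with hashtag antibodies and run together in 1 droplet capture. Tagged antibodies against PD-1, Tim-3 and biotin were read in the same cells, and the biotin tag reports the biotinylated lectin L-Pha, whose ligands are N-glycans with a β1,6 branch. The sources used here do not give the number of mice behind a hashtag, so each tumour is 1 pool, no comparison has a replicate, and every interval covers counting error only. All barcodes come from the same capture, so the tumours do not differ by library, but any difference in how the tumours were processed cannot be told apart from the tumour.

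Dividing T cells copy their DNA in S phase and separate the copies in mitosis. E2F transcription factors switch on the replication genes before and during S phase, and the DREAM and MuvB complexes with B-Myb and FoxM1 govern the genes of G2 and mitosis through promoter elements called CHR (cell cycle genes homology region) and CCAAT. In tumours, CD8 T cells range from TCF-1-positive cells that self-renew to cells that express PD-1, Tim-3 and TOX, a state called exhaustion. Division has been described in several of these states.

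Promoters of 3 genes that were at least 2-fold higher in members of both tumours are shown. Among eligible genes with a single listed promoter, Rrm2 had the highest ratio of the S phase set described below and Hmmr that of the G2/M set. Mcm5 had the highest ratio of S phase genes that carry a match to the E2F element, so it was chosen for that match. Each is the 300 bases from 250 before to 50 after the gene start in RefSeq, build GRCm38.p6, written 5′ to 3′ on the gene's strand. Capitals mark matches on either strand to CHR (TTTGAA or TTCGAA), to CCAAT, or to the E2F element (TTCCCGC or TTGGCGC).
Rrm2 promoter, chr12:24708004-24708303, plus strand: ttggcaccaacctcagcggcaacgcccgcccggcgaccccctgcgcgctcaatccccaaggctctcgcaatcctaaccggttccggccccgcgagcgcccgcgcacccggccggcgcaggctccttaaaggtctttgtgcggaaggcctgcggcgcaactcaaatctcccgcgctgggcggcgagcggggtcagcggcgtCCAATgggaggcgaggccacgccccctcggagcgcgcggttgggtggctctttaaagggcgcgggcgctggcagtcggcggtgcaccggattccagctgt
Mcm5 promoter, chr8:75109259-75109558, plus strand: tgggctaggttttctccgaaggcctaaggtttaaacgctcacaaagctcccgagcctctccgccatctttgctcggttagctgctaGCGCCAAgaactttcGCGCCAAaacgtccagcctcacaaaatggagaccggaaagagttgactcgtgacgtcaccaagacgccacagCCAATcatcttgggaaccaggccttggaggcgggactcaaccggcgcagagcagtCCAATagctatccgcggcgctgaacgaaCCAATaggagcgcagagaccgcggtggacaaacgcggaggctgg
Hmmr promoter, chr11:40733388-40733687, minus strand: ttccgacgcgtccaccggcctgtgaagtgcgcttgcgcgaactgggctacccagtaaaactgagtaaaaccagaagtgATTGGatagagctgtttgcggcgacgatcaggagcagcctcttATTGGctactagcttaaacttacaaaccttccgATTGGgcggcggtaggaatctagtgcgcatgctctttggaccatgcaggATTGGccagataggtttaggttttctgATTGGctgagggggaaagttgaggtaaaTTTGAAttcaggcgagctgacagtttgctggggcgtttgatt
Rrm2, a subunit of the enzyme that makes deoxynucleotides, had a CCAAT match 50 bases before the gene start. Mcm5, a subunit of the replicative helicase, had, counted from the gene start, E2F matches at -164 and -149 and CCAAT matches at -77, -22 and 6. Hmmr, a spindle protein, had a CHR match at 8 and 5 CCAAT matches.

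The antibody tags are short designed oligonucleotides, and 3 of them gave the surface values reported further on. The PD-1 tag is gaaagtcaaagcact. The Tim-3 tag is attggcactcagatg. The biotin tag that read L-Pha is cggtatatcaacaga. MC38-Ova cells carried the hashtag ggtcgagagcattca and B16-Ova cells the hashtag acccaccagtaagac, as the design text of the series assigns them. The growth protocol in the labels names MC38-Ova alone, so every comparison of the tumours rests on that design text.

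The genes of the gate describe the rule and do not test the label. Members had 304 CPM (UMIs of a gene scaled to a total of 1000000) of Mki67 in MC38-Ova and 300 CPM in B16-Ova, with 391 and 429 CPM of Top2a and 355 and 315 CPM of Birc5. Mki67 (chr7:135689784-135716361, minus strand, GRCm38) encodes the Ki-67 antigen of dividing cells, Top2a (chr11:98992943-99024189, minus strand) the topoisomerase that untangles replicated DNA, and Birc5 (chr11:117849251-117855743, plus strand) survivin of the chromosomal passenger complex. All 3 genes were seen in 157 MC38-Ova members (72.4%) and in 199 B16-Ova members (72.4%). Cd8a (chr6:71373427-71379173, plus strand) stood at 564 CPM in MC38-Ova members against 765 CPM in score-0 cells, and at 749 CPM in B16-Ova members against 706 CPM. Both Cd8a and Cd8b1 were seen in 92.2% of MC38-Ova members and 97.8% of B16-Ova members. Among T cell genes that the rule did not use, Cd3e of the T cell receptor complex had 1023 CPM in MC38-Ova members against 1323 CPM in score-0 cells and 1166 CPM in B16-Ova members against 1304 CPM, and the receptor gene Trac had 201 CPM against 235 CPM and 194 CPM against 231 CPM. A small number of members also held RNA of other cell types. Among gamma-delta T cell genes, Tcrg-C2 had 16.9 CPM in MC38-Ova members against 11.9 CPM in score-0 cells and 30.3 CPM in B16-Ova members against 8.12 CPM, and 3 and 2 of the 7 listed genes were at 0 in members. NK and NKT markers summed to 396 CPM in MC38-Ova members against 444 CPM, and to 308 CPM in B16-Ova members against 325 CPM. Fcer1g was the highest, at 149 and 146 CPM in members. CD4 and Treg markers summed to 416 CPM against 519 CPM and to 408 CPM against 432 CPM, with Cd4 and Foxp3 at 0 by the rule. These lists of T and NK cells are not among the 8 lists used next.

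The members with RNA of other cells, 9 in MC38-Ova (4.15%) and 22 in B16-Ova (8%), had at least 10 UMIs of 1 of 8 marker lists of other cells. In score-0 cells the same was true of 16 MC38-Ova cells (0.973%) and 10 B16-Ova cells (0.969%). The limit of 10 UMIs is a raw count, so deeper cells reach it more easily, and members were deeper. In the depth-matched cells described below, the lists did not move one way. Dendritic markers summed to 154 CPM in MC38-Ova members against 703 CPM in score-0 cells, and to 63.1 CPM against 208 CPM in B16-Ova. Stroma markers in MC38-Ova summed to 117 CPM against 18.5 CPM, and macrophage markers in B16-Ova to 25.9 CPM against 84.5 CPM. The MC38-Ova members concerned carried stroma RNA in 6 cells and dendritic RNA in 3, and they gave 11.3% of all UMIs of that group. The B16-Ova members carried dendritic RNA in 15 cells, B cell RNA in 7, macrophage RNA in 4 and melanoma RNA in 3, with 13.1% of UMIs. Summed melanoma markers (7 genes) reached 457 CPM in B16-Ova members against 27.3 CPM in B16-Ova score-0 cells and stood at 21.7 CPM in MC38-Ova members, and 96.7% of the B16-Ova sum came from the 3 cells, which held 54051 to 83552 RNA UMIs. Summed stroma markers (8 genes) reached 267 CPM in MC38-Ova members against 23.2 CPM in MC38-Ova score-0 cells, and 94.7% came from the 6 cells. The total counts of genes below are therefore also given without these members and score-0 cells, called carriers here. Dendritic, B cell, macrophage, neutrophil and colon carcinoma markers summed to at most 335 CPM in members, and erythroid markers to 353 CPM in B16-Ova members, nearly all in 1 cell.

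Members held more RNA than score-0 cells. The median was 12529 RNA UMIs per MC38-Ova member (range 2568 to 108807) against 6164 per MC38-Ova score-0 cell, and 16402 per B16-Ova member (range 1460 to 83552) against 6246 per B16-Ova score-0 cell. The median number of genes was 3221 against 2018 in MC38-Ova and 3782 against 1933 in B16-Ova. Mitochondrial transcripts made up a similar share, with medians of 1.55% against 1.59% and of 1.32% against 1.65%. The score is a raw count, so deeper cells reach it more easily: cells just inside the limit, with a score of 5, numbered 17 in MC38-Ova and 31 in B16-Ova with median depths of 13340 and 14697 UMIs, and cells just outside, with a score of 4, numbered 27 and 29 with 12267 and 12305 UMIs. Depth-matched values below therefore pair each member with a score-0 cell of the same pool whose depth lay within 10%, which was possible for 199 MC38-Ova and 163 B16-Ova members. These matched members and score-0 cells had median depths of 12036 and 12031 UMIs in MC38-Ova and of 13006 and 12411 UMIs in B16-Ova.

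Members were a smaller part of the CD8-gated cells in MC38-Ova than in B16-Ova. The share was 8.53% in MC38-Ova (95% Clopper-Pearson interval 7.47 to 9.68) and 15.3% in B16-Ova (13.7 to 17.1). With every cell reduced to 3000 UMIs and a score of at least 2, it was 8.75% (7.63 to 9.98) in MC38-Ova and 12.8% (11.3 to 14.5) in B16-Ova, so the difference was smaller at equal depth and its intervals did not overlap. At 5000 UMIs and a score of at least 3 it was 9.19% and 14.7%. The same score was reached by 7.81% of Foxp3-gated cells in MC38-Ova and 9.91% in B16-Ova, and by 4.08% and 3.59% of conventional CD4-gated cells. As an alternative, the cells of each pool with the highest doublet scores of Scrublet were left out. Their number was fixed beforehand from barcodes with both hashtags and pool sizes, at 1524 of 8407 MC38-Ova and 935 of 6585 B16-Ova cells. They included 25.3% of MC38-Ova members and 9.09% of B16-Ova members, against 11.3% and 6.78% of score-0 cells. Because that number differed between the pools, their percentages are not compared. Without those cells the MC38-Ova share was 7.38%. Barcodes with both hashtags, which are droplets with more than 1 cell, reached a Mki67, Top2a and Birc5 score of at least 5 in 12.1% of 654 CD8-gated cases.

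Members differed from score-0 cells mainly upward. Among the 7548 genes with at least 100 UMIs in each pool, 374 were at least 2-fold higher in members of both pools, which is 4.95% of the genes tested, and 47 were at least 2-fold lower, which is 0.623%. In depth-matched cells 320 were higher (4.24%) and 21 lower (0.278%). Without carriers, 344 of 7363 genes were higher (4.67%) and 50 lower (0.679%), and with both restrictions 301 were higher (4.09%) and 16 lower (0.217%). Within a single pool, 435 genes were higher in MC38-Ova (5.76%) and 580 in B16-Ova (7.68%), while 78 (1.03%) and 344 (4.56%) were lower. The median gene differed by 0.05 on the log2 scale in MC38-Ova and by 0.10 in B16-Ova. Of the higher genes 278 were so in all cells and at matched depth, which is 74.3% of the 374 and 86.9% of the 320. Of the lower genes 9 were, which is 19.1% of the 47 and 42.9% of the 21.

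The 12 highest genes outside the gate were all genes of DNA replication or mitosis. Ccna2, cyclin A, which drives S phase and entry into mitosis, had 169 CPM in MC38-Ova members against 3.49 CPM in score-0 cells, and 185 CPM in B16-Ova members against 4.48 CPM. Pclaf, a PCNA partner at the fork, had 649 CPM against 18.6 CPM in MC38-Ova, a ratio of 34.9 (30.3 to 40.4), and 817 CPM against 14.7 CPM in B16-Ova, a ratio of 55.6 (45.8 to 68.1). Rrm2 had 323 CPM against 11.6 CPM in MC38-Ova, a ratio of 27.9 (23.3 to 33.6), and 348 CPM against 10.4 CPM in B16-Ova, a ratio of 33.6 (26.6 to 42.9). The others were Shcbp1 of the midbody, Nusap1 of spindle microtubules, Tpx2 and Hmmr of spindle assembly, Cenpe and Knl1 of the kinetochore, Cdca8 of the passenger complex, Fbxo5, an inhibitor of the anaphase-promoting complex, and the histone gene Hist1h2ap. Their log2 ratios lay between 4.78 and 6.86, and those of all 12 genes between 4.73 and 6.34 in depth-matched cells. Hist1h2ap had 327 CPM against 9.77 CPM in MC38-Ova and 555 CPM against 12.9 CPM in B16-Ova. Histone transcripts share long stretches between gene copies, and how reads were divided among them is not given in the sources used here, so single histone genes are uncertain.

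Genes that license and copy DNA were higher almost throughout. Of 19 listed licensing genes 16 were tested and 13 were at least 2-fold higher in both pools, with a list median of 2.21 on the log2 scale in MC38-Ova and 2.45 in B16-Ova. Mcm5 had 147 CPM against 23.3 CPM in MC38-Ova and 177 CPM against 24.5 CPM in B16-Ova. Cdc6, which loads the helicase, had 39.9 CPM against 1.57 CPM and 41.8 CPM against 1.54 CPM. Cdt1, which works beside Cdc6 and is degraded in S phase, was set apart from both, with log2 ratios of 1.17 in MC38-Ova and 0.58 in B16-Ova, while its inhibitor geminin (Gmnn) had 2.37 and 2.62. All 32 replication fork genes listed were tested and 29 were past 2-fold, including Clspn of the replication checkpoint (4.56 in MC38-Ova, 4.65 in B16-Ova) and Uhrf1, which reads newly copied methylated DNA (2.94, 3.25). Pcna, the sliding clamp, stood at 195 CPM against 78.8 CPM in MC38-Ova and 249.7 CPM against 71.3 CPM in B16-Ova, so score-0 cells also held it. Of 15 nucleotide synthesis genes tested 10 were past 2-fold, led by Rrm2, thymidylate synthase Tyms (139 CPM against 12.6 CPM, and 188 CPM against 14.1 CPM) and thymidine kinase Tk1 (139 CPM against 8.72 CPM, and 192 CPM against 11.6 CPM). Without carriers and at matched depth the counts past 2-fold were 11 licensing, 25 fork and 7 nucleotide genes, and none was lower.

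Replication-dependent histone genes were higher in both pools and more so in B16-Ova. Of 16 listed genes 13 were tested and 12 were past 2-fold, with list medians of 1.69 in MC38-Ova and 2.01 in B16-Ova, and of 2.31 and 2.46 without carriers at matched depth. The linker histone gene Hist1h1b had 162 CPM against 25.8 CPM in MC38-Ova and 290.5 CPM against 25.6 CPM in B16-Ova. Hist1h1d, another linker histone, had 56.2 CPM against 8.20 CPM in MC38-Ova and 156 CPM against 9.52 CPM in B16-Ova.

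Cyclins and their kinases divided by role. The D-type cyclin Ccnd2, which acts in early G1, was lower in members, at 159 CPM against 276 CPM in MC38-Ova and 122 CPM against 263 CPM in B16-Ova, a log2 difference of -0.80 and -1.12. Ccnd3, the other D-type cyclin of T cells, differed little, with 0.23 and -0.28. Ccne1, cyclin E of the G1-to-S transition, had 46.2 CPM against 10.4 CPM in MC38-Ova and 37.5 CPM against 8.54 CPM in B16-Ova. The mitotic cyclin Ccnb1 had 51.0 CPM against 1.66 CPM in MC38-Ova and 56.1 CPM against 3.08 CPM in B16-Ova. Cdk1, the mitotic kinase, had 113 CPM against 4.27 CPM and 119 CPM against 4.48 CPM, the same log2 ratio of 4.73 in both pools. Cdk4 (0.95, 1.31) and Cdk6 (0.50, 0.82), the partners of D-type cyclins, were not past 2-fold in both pools, and Cdk6 came to 0.02 and -0.08 at matched depth. The cyclins and kinases used late in the cycle thus had far higher ratios than those of early G1. The gate genes are themselves genes of the late cycle, so this order is not independent of the rule.

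Inhibitors of these kinases did not move one way. Cdkn2c, p18 of the INK4 family, had 29.0 CPM in MC38-Ova members against 10.99 CPM, and 45.9 CPM in B16-Ova members against 15.7 CPM. Cdkn3, a phosphatase that acts on CDKs, had log2 ratios of 4.25 and 4.53. Cdkn1a, p21, had 232 CPM against 136 CPM in MC38-Ova and 116 CPM against 55.3 CPM in B16-Ova. Cdkn1b, p27, which is associated with quiescence, had 89.7 CPM against 143 CPM in MC38-Ova and 69.9 CPM against 139 CPM in B16-Ova, and log2 ratios of 0.03 and -0.35 at matched depth.

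Genes of mitosis had the highest list medians. Mki67, Top2a and Birc5 are G2/M genes, so this rank describes cells chosen by such genes and is not independent of the rule. All 12 mitotic kinase genes tested, of 15 listed, were past 2-fold (medians 4.43 in MC38-Ova and 4.54 in B16-Ova), as were 16 of 17 kinetochore and checkpoint genes (4.05, 3.95) and all 28 spindle and cytokinesis genes (3.999, 4.09). Without carriers the counts were 10, 14 and 25, since the other genes of these lists past 2-fold in all cells had fewer than 100 UMIs in a pool there. Plk1, polo-like kinase, had 54.4 CPM against 1.66 CPM in MC38-Ova and 49.3 CPM against 2.10 CPM in B16-Ova. Stmn1, stathmin, a protein that destabilises microtubules, had 841 CPM against 46.5 CPM and 815 CPM against 47.2 CPM. Bub3, a checkpoint protein, was the kinetochore gene not past 2-fold, at 133 CPM against 90.4 CPM and 162 CPM against 88.8 CPM. For chromosome condensation 13 of 15 tested genes were past 2-fold, and 14 without carriers, among them the condensin gene Smc2 (245 CPM against 25.2 CPM, and 262 CPM against 26.2 CPM) and Hmgb2, a chromatin protein (2149.7 CPM against 396 CPM, and 2035 CPM against 369 CPM). For mitotic exit 5 of 9 were: Cdc20, the activator of the anaphase-promoting complex, and Ube2c, its E2 enzyme, had log2 ratios of 4.75 and 3.87 in MC38-Ova and 4.17 and 3.79 in B16-Ova. Securin (Pttg1), which holds back the separation of sister chromatids until anaphase, stood level, at 96.6 CPM against 99.7 CPM in MC38-Ova and 98.7 CPM against 94.1 CPM in B16-Ova. Of the transcription factors 4 of 12 tested were past 2-fold, and 6 at matched depth, among them E2f1 (33.2 CPM against 5.06 CPM, and 44.7 CPM against 5.60 CPM), and Myc was not (62.8 CPM against 52.1 CPM, and 53.8 CPM against 58.7 CPM).

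**Figure D1:**
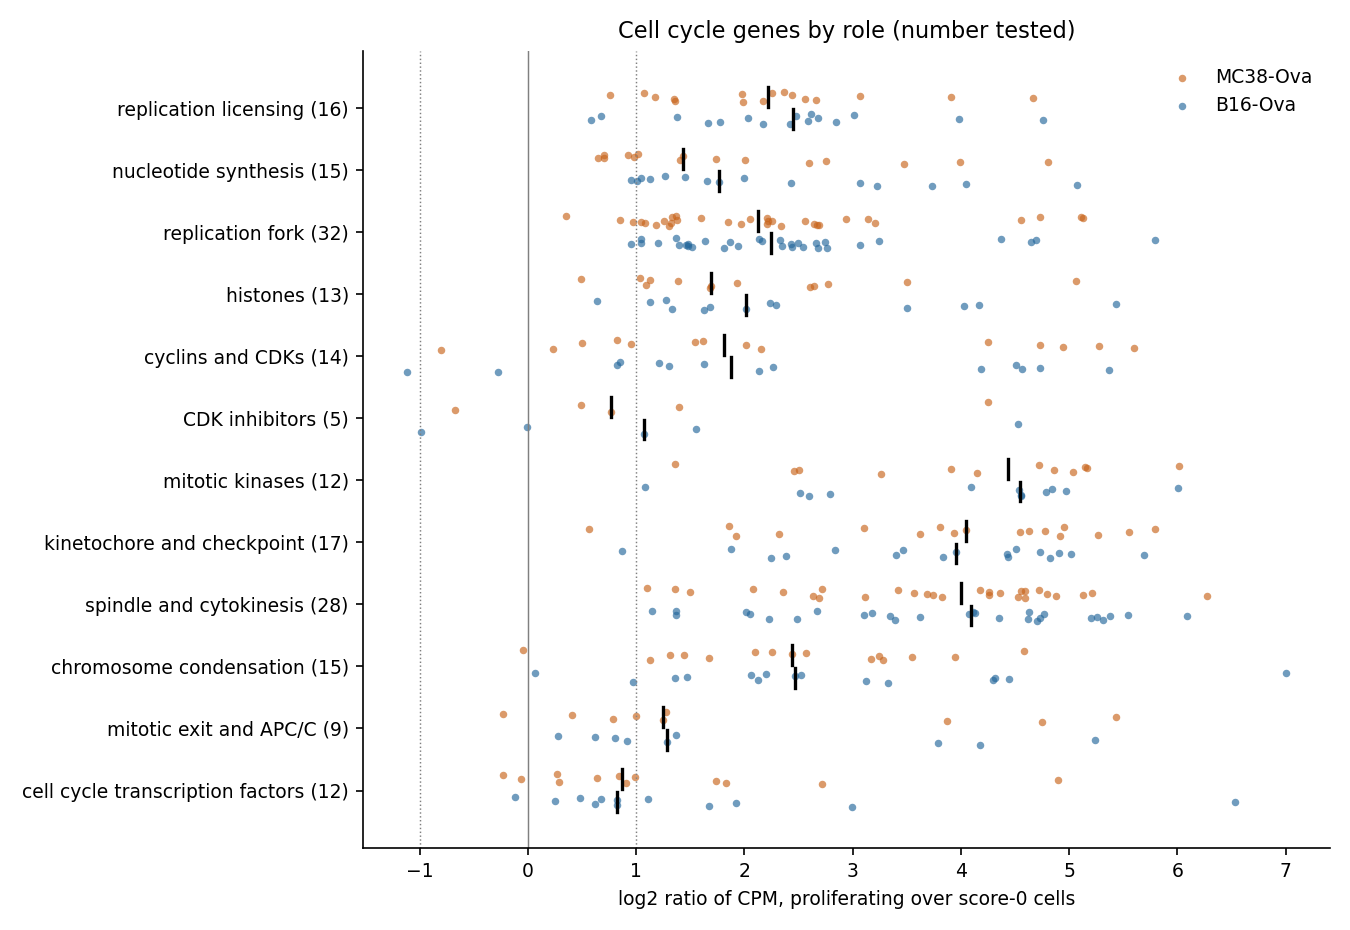
Log2 ratio of CPM, proliferating over score-0 CD8-gated cells (horizontal axis), for each tested gene of the cell cycle lists (rows), MC38-Ova above B16-Ova in each row; black bars are list medians and dotted lines mark 2-fold. Medians run from 0.77 for CDK inhibitors in MC38-Ova to 4.54 for mitotic kinases in B16-Ova, and the points of both pools lie close together in most rows.

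The plot by role shows both pools side by side: the row whose medians differed most was nucleotide synthesis, at 1.43 in MC38-Ova and 1.77 in B16-Ova on the log2 scale. Promoters of these genes were compared with all 32851 RefSeq promoters of the same length. CHR was found in 73.5% of 49 promoters of the G2/M set (44 of 51 genes matched), in 17.6% of 34 promoters of the S phase set (31 of 43 genes matched) and in 19.2% of all promoters. The E2F element was in 14.3% of G2/M-set promoters, 50% of S-set promoters and 6.81% of all. Promoters of the genes tested held it in 13.1%, near the share of the G2/M set. CCAAT was in 75.5%, 67.6% and 37.4%. Among the 374 genes higher in both pools, 291 matched, and their 356 promoters held CHR in 32.6%, CCAAT in 55.1% and E2F in 32.9%, against 14.2%, 37.1% and 13.1% for the genes tested. The Hmmr promoter printed above holds both CHR and CCAAT, as did 59.2% of the G2/M set. The Mcm5 promoter, chosen for its E2F match, holds no CHR. A match is a description of letters in this window, not a site.

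Individual members differed in the balance of S-set and G2/M-set transcripts. The rule chose cells by G2/M genes, so the balance describes members as gated and not all dividing cells. At 3000 UMIs per cell, which left out 2 MC38-Ova and 6 B16-Ova members, the S set gave a median of 12 UMIs per MC38-Ova member (quartiles 5 to 18) against 3 in score-0 cells, and 15 per B16-Ova member (quartiles 8 to 21) against 3. The G2/M set without the gate genes gave 23 (14 to 33) against 5 in MC38-Ova and 21 (13 to 31) against 5 in B16-Ova. At least 10 S-set UMIs were held by 57.7% of MC38-Ova members against 1.85% of score-0 cells, and by 71.0% of B16-Ova members against 1.92%. Score-0 cells therefore rarely reached the S-set level of members. They were chosen to hold no UMI of 3 cell cycle genes, so this is not independent of the rule. Cells with a score of 1 to 4 held at least 10 S-set UMIs in 9.61% of MC38-Ova and 11.5% of B16-Ova cases. S-set UMIs exceeded G2/M-set UMIs in 41 of 215 MC38-Ova members, which is 19.1% (14.0 to 24.97), and in 87 of 269 B16-Ova members, which is 32.3% (26.8 to 38.3). Before reduction the shares were 17.97% and 37.1%. In score-0 cells, where both counts are near background, they were 18.03% in MC38-Ova and 19.8% in B16-Ova after reduction. Across members the 2 counts were nearly unrelated, with Spearman coefficients of 0.089 in MC38-Ova and 0.104 in B16-Ova over cells of the same depth, given as a description.

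**Figure D2:**
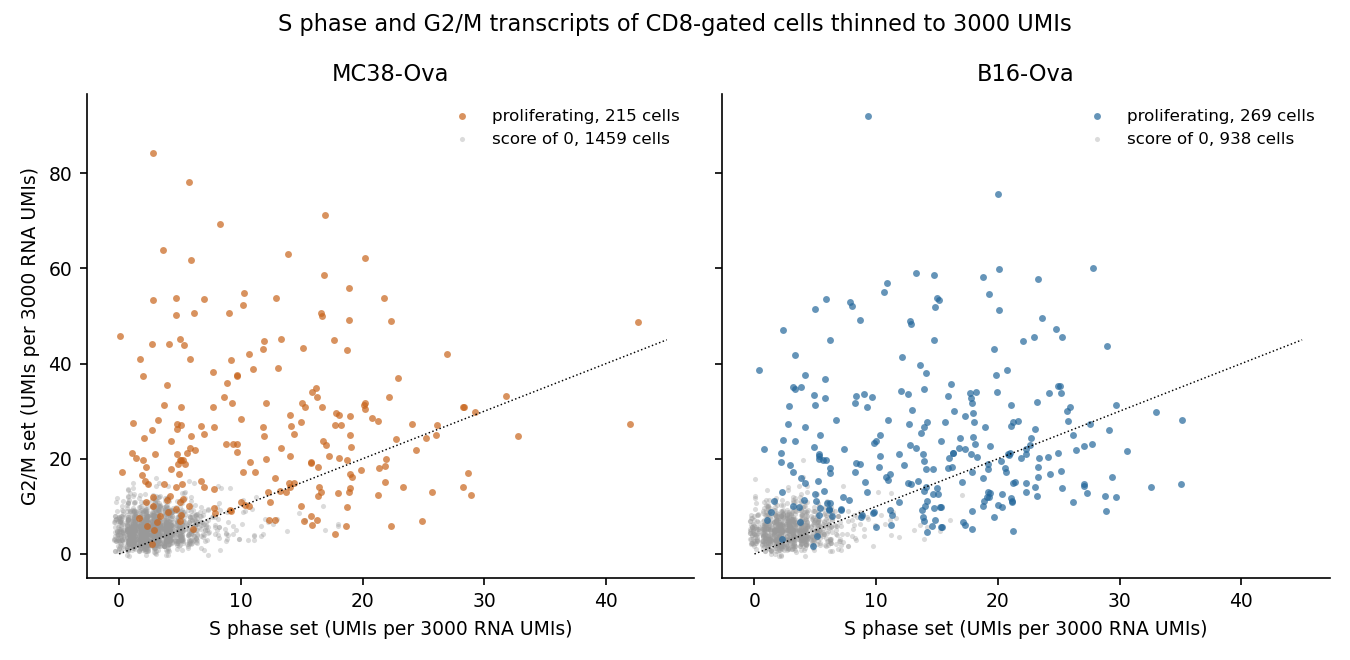
S-set UMIs (horizontal) and G2/M-set UMIs without the gate genes (vertical) per CD8-gated cell at 3000 UMIs, with MC38-Ova left and B16-Ova right; members are drawn over score-0 cells and the dotted line marks equal counts. Members spread away from the score-0 cells along both axes, and 32.3% of B16-Ova members against 19.1% of MC38-Ova members lie on the S-set side of the line.

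Genes lower in members were led by trafficking, quiescence and interferon genes, and many of these differences were smaller at matched depth. Ccr7, the receptor that guides T cells to lymph nodes, had 54.4 CPM against 166 CPM in MC38-Ova, a ratio of 0.327 (0.279 to 0.381), and 68.2 CPM against 263 CPM in B16-Ova, a ratio of 0.259 (0.231 to 0.291). Its log2 ratios of -1.62 and -1.95 were -1.64 and -2.19 at matched depth. Tcp11l2 was likewise lower in all cells (-1.48, -3.03) and in matched cells (-1.18, -2.66). Il7r, the receptor chain for interleukin-7, had 101 CPM against 223 CPM in MC38-Ova and 36.7 CPM against 234 CPM in B16-Ova, with log2 ratios of -1.14 and -2.67, and of -0.52 and -1.78 in matched cells. Btg1, an anti-proliferative gene, had 393 CPM against 888 CPM and 323 CPM against 965 CPM, with -0.83 and -0.79 in matched cells. Ccl5, a chemokine gene, had 2139 CPM against 4960.1 CPM in MC38-Ova and 3800.3 CPM against 8859 CPM in B16-Ova, but its B16-Ova log2 ratio of -1.22 came to -0.04 in matched cells. The interferon-induced genes Ifit3 (-1.69, -1.89), Ifi213 (-1.19, -1.58), Tgtp1 (-1.45, -1.95) and Ifit1 (-1.10, -2.08), together with Rnf167, Ypel3 and Ssh2, completed the 12 lowest. Matched values of these 7 genes lay between -1.42 and -0.22. The interferon list as a whole (18 genes tested, 2 past 2-fold lower in both pools and 4 without carriers) had medians of -0.58 in MC38-Ova and -1.09 in B16-Ova, and of -0.37 and -0.28 without carriers at matched depth, with none past 2-fold there. The quiescence list (16 genes tested, 2 lower and 3 without carriers) had -0.67 and -1.30, and -0.19 and -0.67 without carriers at matched depth. Of the 12 lowest genes, only Ccr7 and Tcp11l2 were past 2-fold in both pools at matched depth.

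The naive and memory list differed between tumours in size. Of its 20 genes 18 were tested, 2 were past 2-fold lower in both pools, and 2 had a ratio above 1 in MC38-Ova while none did in B16-Ova. The list median was -0.58 in MC38-Ova and -1.90 in B16-Ova, and -0.28 and -1.21 without carriers at matched depth, against all-gene medians of 0.06 and 0.07 there. Tcf7, which encodes TCF-1, had 69.5 CPM against 137 CPM in MC38-Ova, a ratio of 0.506 (0.439 to 0.581), and 34.4 CPM against 144 CPM in B16-Ova, a ratio of 0.239 (0.202 to 0.280). Score-0 cells of both pools thus held similar Tcf7, and B16-Ova members held less than MC38-Ova members. Klf2, a transcription factor that drives S1pr1, had 225 CPM against 207 CPM in MC38-Ova and 115 CPM against 515 CPM in B16-Ova. S1pr1, the receptor for exit from tissue, had 39.3 CPM against 57.4 CPM and 10.3 CPM against 60.9 CPM. Both had a log2 ratio above 0 in MC38-Ova without carriers at matched depth (Klf2 0.53, S1pr1 0.29), where in B16-Ova they had -1.18 and -0.97. Among the remaining genes Id3 followed that pattern (0.98, -2.21), and Lef1 (-0.34, -1.06), Bach2 (-0.40, -2.89), Satb1 (-0.56, -1.43) and Bcl2 (-0.74, -1.32) were lower in both pools. Genes that respond to tissue dissociation, some of which are also activation genes, moved alongside: the list had medians of 0.09 in MC38-Ova and -0.52 in B16-Ova, with Fos at 0.27 and -0.86 and Jun at 0.20 and -1.12, and their part in these differences was not tested.

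The exhaustion list was lower in MC38-Ova members and in B16-Ova members stood close to the median of all genes at matched depth, with no gene past 2-fold in both pools. Of its 23 genes 18 were tested, and 1 had a ratio above 1 in MC38-Ova against 12 in B16-Ova. The list median was -0.42 in MC38-Ova and 0.19 in B16-Ova, against all-gene medians of 0.05 and 0.10, and -0.47 and 0.08 without carriers at matched depth, against 0.06 and 0.07. Pdcd1, which encodes PD-1, had 246 CPM in MC38-Ova members against 323 CPM in score-0 cells, a ratio of 0.759 (0.703 to 0.819), and 447 CPM in B16-Ova members against 311 CPM, a ratio of 1.44 (1.36 to 1.53). Havcr2, which encodes Tim-3, had 80.6 CPM against 118 CPM in MC38-Ova and 119.9 CPM against 89.7 CPM in B16-Ova. Lag3, another inhibitory receptor, had 279 CPM against 468 CPM and 377 CPM against 325 CPM. Tox, the transcription factor tied to exhaustion, had 47.1 CPM against 49.98 CPM in MC38-Ova, a ratio of 0.943 (0.785 to 1.13), and 189 CPM against 101 CPM in B16-Ova, a ratio of 1.88 (1.70 to 2.07). The B16-Ova ratios were lower without carriers at matched depth, where the log2 ratios were 0.20 for Pdcd1, 0.13 for Havcr2, -0.11 for Lag3 and 0.52 for Tox. MC38-Ova had -0.47, -0.97, -0.99 and -0.15 there. The difference between the tumours in these ratios was not tested.

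**Figure D3:**
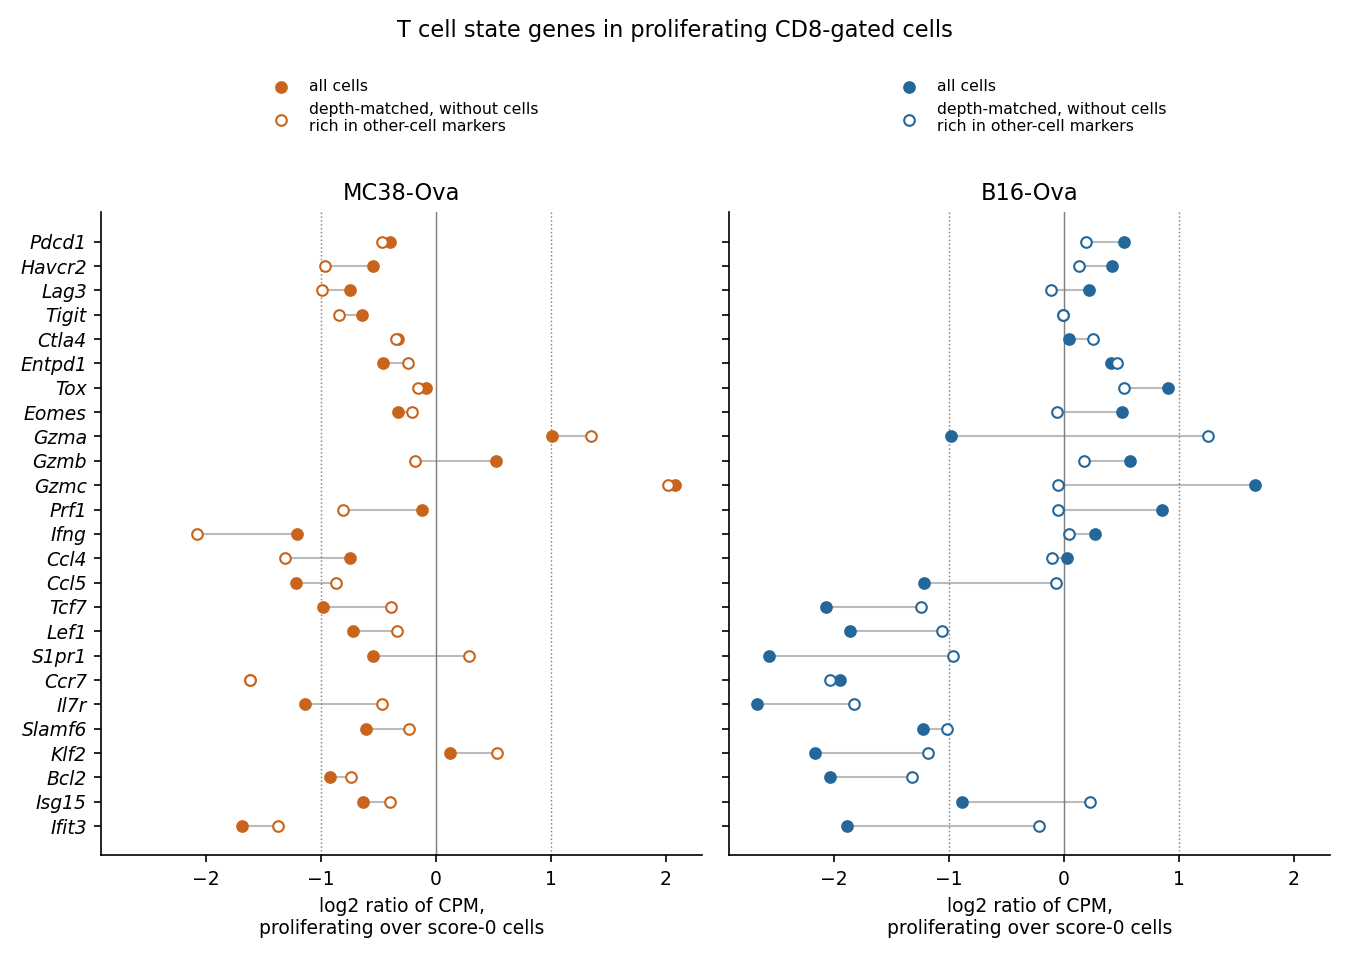
Log2 ratio of CPM, proliferating over score-0 CD8-gated cells, for 25 genes of T cell state, with MC38-Ova left and B16-Ova right; filled points use all cells and open points depth-matched cells without carriers. Tcf7 (-0.98 and -2.07) lies left of 0 in both panels, and Pdcd1 (-0.40 and 0.52) and Tox (-0.09 and 0.91) lie further right in B16-Ova.

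The plot of state genes also shows how far matching moved each gene. S1pr1 of MC38-Ova (-0.55 in all cells, 0.29 matched) and Gzma of B16-Ova (-0.98, 1.25) crossed 0 upward, and Gzmb of MC38-Ova (0.52, -0.18) crossed it downward.

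Shares of cells with a transcript were compared at equal depth and did not follow the CPM ratios for every gene. At 3000 UMIs Pdcd1 was seen in 39.5% of MC38-Ova members against 39.6% of score-0 cells, and in 68.0% of B16-Ova members against 33.3%, so MC38-Ova showed no difference in the share where its CPM ratio was 0.759. Tox was seen in 9.30% against 12.3% in MC38-Ova and in 33.5% against 19.0% in B16-Ova. Tcf7 was seen in 15.3% against 32.6% in MC38-Ova and in 8.92% against 32.0% in B16-Ova, and Il7r in 22.8% against 35.9% and 8.55% against 40.5%. At full depth Pdcd1 was in 70.5% of members against 52.4% in MC38-Ova and in 87.3% against 44.5% in B16-Ova, and Tcf7 in 41.9% against 47.1% and in 27.6% against 47.3%. As a reference for free RNA, 78 barcodes at 3000 UMIs had markers of another cell type and at most 1 UMI of T cell genes, with a median of 12828 UMIs over 106 such barcodes before reduction. They held Pdcd1, Tox and Tcf7 in 0 of 78, which allows a share of up to 3.85% at 3 counts (exact 95% limit 4.62%), and Il7r in 5.13% (1.41 to 12.6). The Il7r share of B16-Ova members, 8.55% (5.50 to 12.6), lay within that interval. Of other genes described here, these barcodes held Ccl5 in 41.0% (30.0 to 52.7) and Gzmb in 10.3% (4.53 to 19.2). Havcr2 and Gzma were each in 5.13% (1.41 to 12.6), and Ccr7 and S1pr1 each in 1.28%. Tcf7 and Pdcd1 together were seen in 2.79% of MC38-Ova members against 7.47% of score-0 cells, and in 5.95% of B16-Ova members against 4.90%.

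Turned round, the share of proliferating cells depended on these genes in different ways in the pools. In B16-Ova, 19.1% (16.3 to 22.1) of CD8-gated cells with a Pdcd1 UMI were proliferating at equal depth, against 7.93% (6.28 to 9.85) of those without. In MC38-Ova the shares were 7.77% (6.17 to 9.63) with Pdcd1 and 9.47% (7.95 to 11.2) without. For Tcf7 they were 6.00% with and 9.90% without in MC38-Ova, and 4.81% with and 15.5% without in B16-Ova. The higher share of proliferating cells in B16-Ova was thus found among Pdcd1-positive and Tcf7-negative cells, while the intervals of the tumours overlapped for Pdcd1-negative cells. Cells were not matched on depth before reduction, where B16-Ova medians were 16402 UMIs in members and 6246 in score-0 cells. The part of that depth in these shares was not tested.

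The differences were also followed over the score. In B16-Ova, Tcf7 was 144 CPM at a score of 0, 99.2 at 1 to 2, 42.7 at 3 to 4, 45.9 at 5 to 9 and 28.9 CPM at 10 or more. In MC38-Ova it was 137, 114, 103, 67.3 and 70.6 CPM. Tox in B16-Ova was 101, 130, 171, 194 and 186.5 CPM over the same classes and in MC38-Ova 49.98, 41.8, 48.8, 57.5 and 41.7 CPM. The B16-Ova values thus already differed at a score of 3 to 4, below the limit for members, whereas Tox showed no trend in MC38-Ova. Pdcd1 in MC38-Ova was 323, 384, 391, 342.5 and 195 CPM, highest in the middle classes, and in B16-Ova 311, 428, 481, 498 and 423 CPM. Mcm5 already stood at 135 CPM at a score of 3 to 4 in MC38-Ova, with 145 CPM at 10 or more, and at 100.4 CPM in B16-Ova, with 193 CPM at 10 or more. Plk1 was 5.30 and 0.99 CPM at 3 to 4 and 74.3 and 68.8 CPM at 10 or more. Hist1h1b was 21.2 and 22.9 CPM at 3 to 4, no higher than the 25.8 and 25.6 CPM at 0, and 215 and 408 CPM at 10 or more. Median depth ran alongside, from 6164 UMIs at 0 to 12769 at 10 or more in MC38-Ova and from 6246 to 16384 in B16-Ova, and its part in the trends was not tested.

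**Figure D4:**
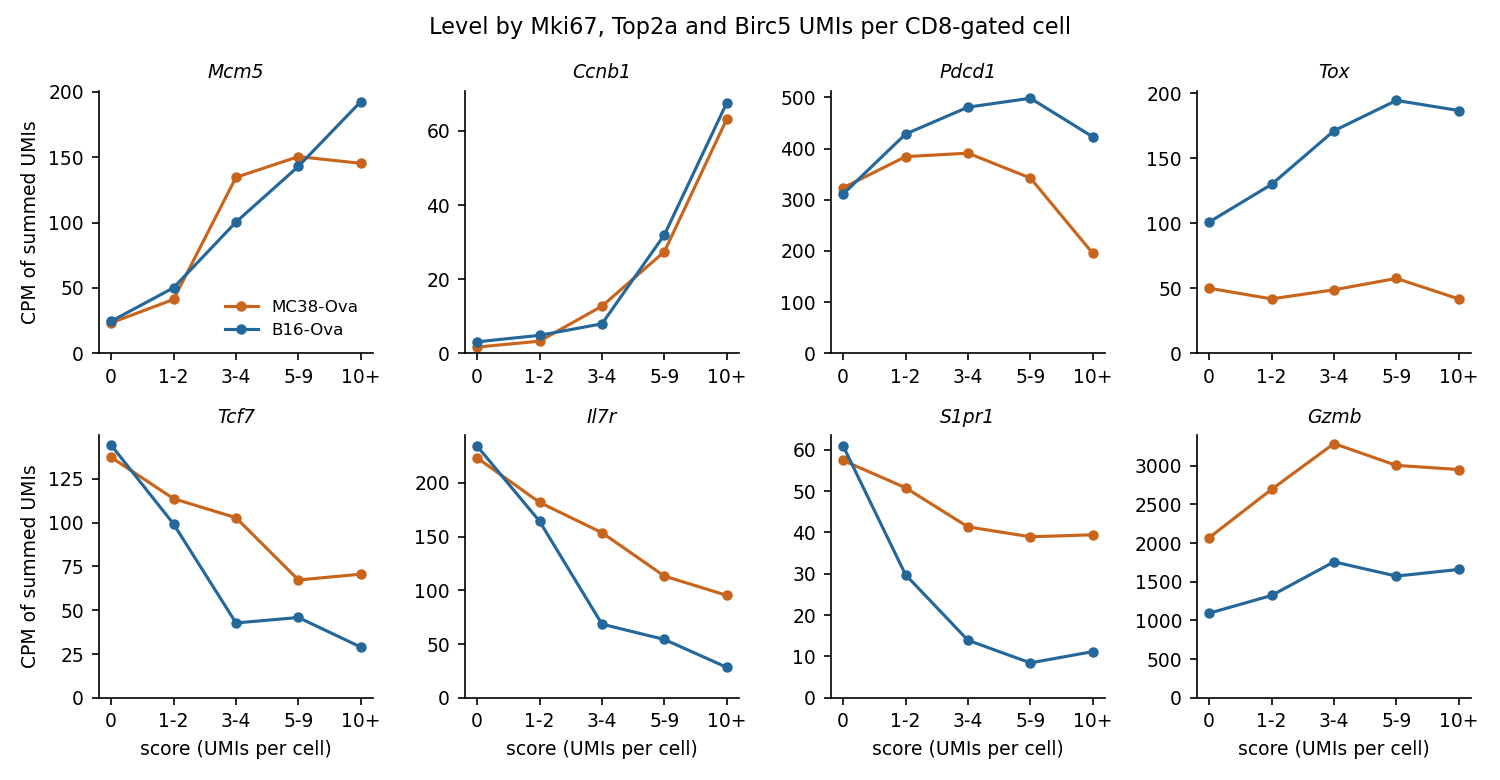
CPM of summed UMIs (vertical, linear axes from 0) of 8 genes over the score of Mki67, Top2a and Birc5 UMIs (horizontal, 0 to 10 or more) in CD8-gated cells of MC38-Ova and B16-Ova. Mcm5 is at 135 CPM in MC38-Ova and 100.4 CPM in B16-Ova at a score of 3 to 4, above its 23.3 and 24.5 CPM at a score of 0, Ccnb1 is highest at 10 or more (63.3 and 67.6 CPM), and Tcf7, Il7r and S1pr1 are lower at high scores in B16-Ova than in MC38-Ova.

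Effector genes varied between and within the pools. Of 22 cytotoxic genes 21 were tested, and 1 was past 2-fold in both pools, a share near the 4.95% of all genes. It was Gzmc, a granzyme, at 209.9 CPM against 49.8 CPM in MC38-Ova and 267 CPM against 84.4 CPM in B16-Ova. Its B16-Ova log2 ratio of 1.66 was -0.05 at matched depth. Granzyme B (Gzmb) had 2968 CPM against 2069 CPM in MC38-Ova and 1631 CPM against 1093 CPM in B16-Ova, and log2 ratios of -0.18 and 0.17 without carriers at matched depth. Granzyme A (Gzma) had 317 CPM against 157 CPM in MC38-Ova and 109 CPM against 215 CPM in B16-Ova. Its B16-Ova ratio changed direction at matched depth without carriers, where the log2 ratios were 1.35 in MC38-Ova and 1.25 in B16-Ova. Perforin (Prf1) had 181 CPM against 197 CPM in MC38-Ova and 515 CPM against 285 CPM in B16-Ova. Interferon gamma (Ifng) had 407 CPM against 943 CPM in MC38-Ova, a ratio of 0.432 (0.407 to 0.457), and 298 CPM against 247 CPM in B16-Ova, a ratio of 1.21 (1.13 to 1.29). In MC38-Ova that log2 ratio of -1.21 was -2.08 without carriers at matched depth, and in B16-Ova 0.27 was 0.05. At 3000 UMIs, at least 2 Ifng UMIs were held by 25.1% (19.5 to 31.5) of MC38-Ova members against 17.8% (15.9 to 19.9) of score-0 cells, so the share and the CPM went opposite ways there and no order is read from them. In B16-Ova the shares were 18.96% (14.5 to 24.2) against 11.8% (9.84 to 14.1). Without carriers at matched depth 3 of the 21 genes were past 2-fold in both pools, against 4.09% of all genes: Gzma, granzyme K (Gzmk; 1.00, 1.17) and the inhibitory receptor gene Klrg1 (1.05, 1.19). Gzmc was not. In B16-Ova, matching thus reversed the CPM ratio of Gzma and left that of Gzmc about level, but shares at 3000 UMIs did not follow. At least 2 Gzma UMIs were held by 6.32% (3.72 to 9.93) of B16-Ova members against 8.53% (6.82 to 10.5) of score-0 cells, with overlapping intervals. At least 2 UMIs of the granzyme genes Gzmf or Gzmc were held by 13.01% (9.23 to 17.6) against 2.88% (1.91 to 4.16). The reason for this conflict was not tested, and no order is read for either gene there.

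Metabolic lists had few genes past 2-fold. The respiratory chain (32 genes tested) had medians of 0.31 in MC38-Ova and 0.54 in B16-Ova, the proteasome (25 genes) 0.42 and 0.56, and glycolysis and hypoxia (21 genes) 0.07 and 0.63, with no gene past 2-fold in both pools. Without carriers at matched depth glycolysis and hypoxia had -0.30, with 0 of 21 genes above 0, in MC38-Ova and 0.02 in B16-Ova. Ribosome biogenesis (24 genes) had 0.35 and 0.60 in all cells but -0.23 and -0.17 without carriers at matched depth. The 1 gene past 2-fold in all cells, Ran, a GTPase of nuclear transport and the spindle, had 979 CPM against 382 CPM in MC38-Ova and 1202 CPM against 390.5 CPM in B16-Ova, and at matched depth its log2 ratios of 0.83 and 0.97 were not past 2-fold. Cholesterol synthesis (18 genes) had 0.73 and 1.00, and 3 genes were past 2-fold, among them Idi1 at 24.8 CPM against 10.6 CPM in MC38-Ova and 65.5 CPM against 24.4 CPM in B16-Ova and Cyp51 at 37.7 CPM against 16.6 CPM and 90.0 CPM against 39.1 CPM. At matched depth 1 gene was past 2-fold, Acat2 (1.01, 1.53), and neither Idi1 (0.97, 0.91) nor Cyp51 (0.79, 0.64) was. The list medians were 0.69 and 0.46 without carriers at matched depth. Cholesterol synthesis was the metabolic list highest in both pools in all cells. Of the amino acid transport genes, Slc43a3 had 22.6 CPM against 6.63 CPM in MC38-Ova and 30.1 CPM against 4.48 CPM in B16-Ova.

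Surface tags were read from separate molecules in the same cells. The median L-Pha count was 573 UMIs per MC38-Ova member (95% order-statistic interval 482 to 661) against 326 (316 to 337) in score-0 cells, and 895 (856 to 969) per B16-Ova member against 337 (312 to 356). The ratios of 1.76 and 2.66 exceeded those of the cells' own hashtag, 1.25 and 1.26. At matched depth the medians were 522 (459 to 600) against 489 (458 to 578) in MC38-Ova and 807 (709 to 877) against 608 (517 to 728) in B16-Ova, ratios of 1.07 and 1.33. The intervals of members and score-0 cells overlapped in both pools. Per 1000 RNA UMIs the ratios were 0.843 and 0.968, so that more L-Pha per cell went with more RNA per cell, and across members the Spearman coefficient of L-Pha with RNA UMIs was 0.60 in MC38-Ova and 0.45 in B16-Ova. The PD-1 tag had medians of 20 UMIs in MC38-Ova members against 18 in score-0 cells and 28 in B16-Ova members against 17, and at matched depth 19 against 22 and 26 against 22. The Tim-3 tag had 23 against 20 and 26 against 19, and at matched depth 22 against 26 and 26 against 23. At matched depth both tags were thus lower in MC38-Ova members and higher in B16-Ova members, but all 4 pairs of intervals overlapped (for the PD-1 tag in MC38-Ova 18 to 21 against 20 to 23) and the direction changed with the scale. The own hashtag was itself lower in matched members, at 514 UMIs against 626 in MC38-Ova and 486 against 555 in B16-Ova. Per 100 own-hashtag UMIs the matched MC38-Ova ratios were 1.07 for the PD-1 tag and 1.02 for Tim-3, and per 1000 RNA UMIs the matched B16-Ova ratios were 0.997 and 0.976. Mgat5, which encodes the enzyme that makes the β1,6 branch, had 13.9 CPM against 19.9 CPM in MC38-Ova and 9.91 CPM against 16.4 CPM in B16-Ova, and none of 18 branching genes tested was past 2-fold in both pools.

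**Figure D5:**
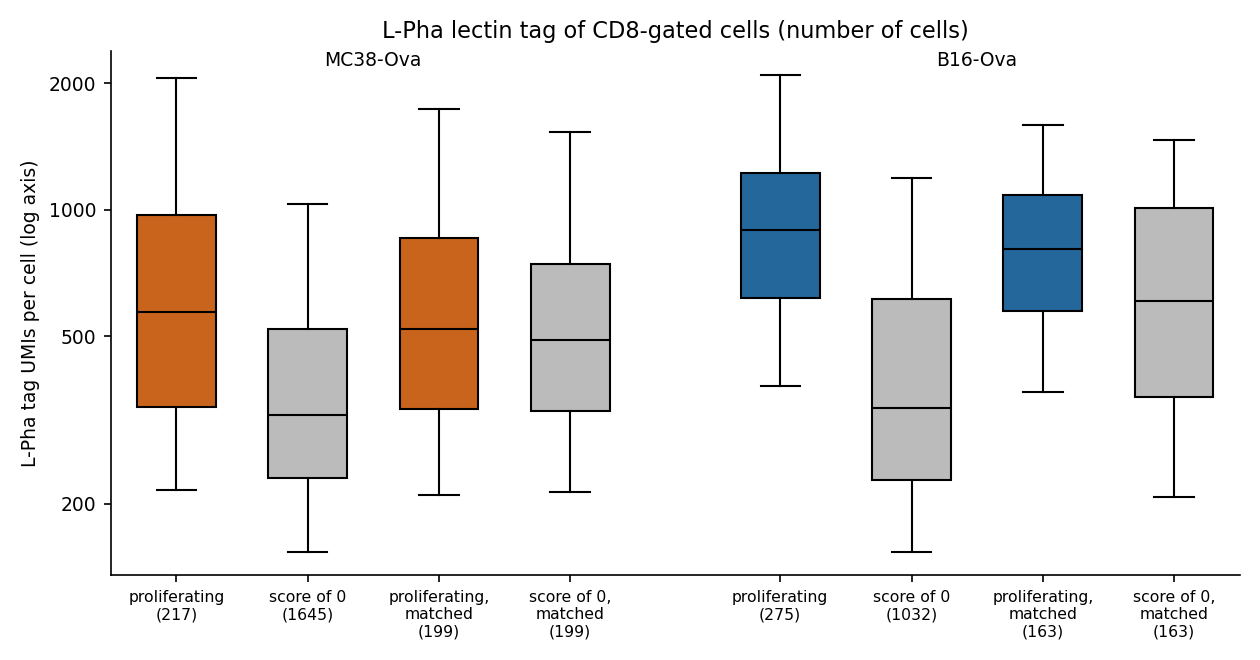
L-Pha tag UMIs per cell (vertical, log axis) of proliferating and score-0 CD8-gated cells, for all cells and depth-matched cells of MC38-Ova and B16-Ova; boxes are quartiles with the median and whiskers run from the 5th to the 95th percentile. Over all cells the median is higher in members of both pools (573 against 326 and 895 against 337), and the gap is smaller at matched depth (522 against 489 and 807 against 608).

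Members of the tumours were also compared with each other, MC38-Ova over B16-Ova. Of 6905 genes with at least 100 UMIs, 187 were at least 2-fold higher in MC38-Ova (2.71%) and 108 at least 2-fold lower (1.56%). In 188 depth-matched pairs 174 were higher (2.52%) and 104 lower (1.51%). Several of the largest ratios came from few cells. All 414 Saa3 UMIs of MC38-Ova were in 1 member. Of 727 Pmel UMIs in B16-Ova members, 97.8% were in 3 cells, as were 96.1% of Dct, 95.2% of Tyrp1, 97.6% of Gpnmb, 98.7% of Mlana and 98.0% of Ptgds. For Hbb-bs, haemoglobin, 1131 of 1137 UMIs were in 1 cell. Col3a1, Ccl2, Ecm1, Emp1, Ccnd1, Gng11, Cst6, Sparc and Hba-a1 stood among the extremes as well and are not described further, since Sparc, for instance, had 81.0% of its UMIs in 3 cells. Without carriers Emp1, a membrane protein gene, was still past 2-fold, at 35.8 CPM against 5.82 CPM, and it was seen in 70 of 217 MC38-Ova members. Ecm1 had 18.7 CPM against 3.58 CPM there, on fewer than 100 UMIs, and none of the others named in this paragraph was past 2-fold there with 100 UMIs. The values below are without carriers, where 160 of 6446 genes were higher (2.48%) and 101 lower (1.57%). At matched depth as well, 138 were higher (2.14%) and 99 lower (1.54%).

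Without carriers, interferon-inducible membrane genes and memory genes were higher in MC38-Ova members. Ifitm1 had 245 CPM in MC38-Ova members against 6.26 CPM in B16-Ova members, a log2 ratio of 5.29, where score-0 cells had 3.50, and it was seen in 48 of 217 MC38-Ova against 9 of 275 B16-Ova members before carriers were left out. Ifitm2 had 130 CPM against 8.05 CPM and Ifitm3 69.1 CPM against 8.28 CPM. Of 16 interferon-stimulated genes tested 12 were past 2-fold higher in MC38-Ova, with a median of 1.52 in members and 0.77 in score-0 cells. The score-0 cells of the pools thus differed in the same direction by less. Lmna, a nuclear lamin, had 151 CPM against 17.9 CPM (3.08 in members, 1.61 in score-0 cells) and was seen in 141 MC38-Ova and 61 B16-Ova members. Klra7, a Ly49 receptor, had 97.7 CPM against 13.2 CPM, Cd7 445 CPM against 99.3 CPM, and Lgals3, galectin-3, 492 CPM against 115 CPM. The tumour necrosis factor gene Tnf (95.3 CPM against 22.6 CPM), Fos (649 CPM against 168 CPM), Jaml (143 CPM against 32.4 CPM) and Rtp4 (84.1 CPM against 21.9 CPM) were also among the 12 highest. Il2, interleukin-2, had 66.4 CPM against 1.12 CPM, but 95.4% of its 196 MC38-Ova UMIs were in 3 of the 11 cells that held it. Of 17 naive and memory genes tested 12 were past 2-fold higher in MC38-Ova members and 1 lower, with a median of 1.13, against -0.07 in score-0 cells. Tcf7 (1.18 in members, -0.08 in score-0 cells), S1pr1 (1.99, -0.08), Il7r (1.39, -0.09) and Klf2 (1.03, -1.33) gave that difference, so the memory genes separated the tumours in members and much less, or the other way, in score-0 cells.

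Lower in MC38-Ova members were exhaustion, histone, cholesterol and some granzyme genes. Tox had 47.7 CPM in MC38-Ova members against 195.5 CPM in B16-Ova members, a log2 ratio of -2.04, where score-0 cells had -0.99, and it was seen in 73 of 217 and 210 of 275 members of all. Of 19 exhaustion genes tested 6 were past 2-fold lower and none higher, with a median of -0.62 against 0.03 in score-0 cells. Spp1, osteopontin, had 18.05 CPM against 249 CPM (-3.78 in members, -3.49 in score-0 cells), in 16 and 86 members. Hspa1a, a heat-shock gene that also responds to tissue handling, had 5.79 CPM against 97.1 CPM (-4.07, -3.03). Spp1 thus separated the tumours in score-0 cells almost as much, and Hspa1a separated them there by less. Gzme had 3.41 CPM against 75.8 CPM (-4.48 in members, -0.48 in score-0 cells), but 57.7% of its 433 B16-Ova UMIs lay in 3 cells. Gzmd, its neighbour in the granzyme cluster, had 7.49 CPM against 62.6 CPM (-3.06, -0.48), or -2.23 in members at matched depth, with 65.3% of its 334 B16-Ova UMIs in 3 of the 17 cells that held it. Serpina3g, a protease inhibitor of activated T cells, had 59.9 CPM against 181 CPM, and Nrgn, Ccrl2 and Gsto1 had log2 ratios of -1.94, -1.69 and -1.53. Of 14 histone genes tested 3 were lower, with a median of -0.73 against -0.20 in score-0 cells, among them Hist1h1d at 61.6 CPM against 171 CPM (-1.48, -0.22), and the S set had a median of -0.37 and the G2/M set of -0.02. Of 17 cholesterol genes 8 were lower, with a median of -0.86 against -0.48.

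Tag counts were lower in MC38-Ova than in B16-Ova members in depth-matched pairs. Median depths of these pairs still differed, at 13783 RNA UMIs in MC38-Ova and 15191.5 in B16-Ova, and the part of depth in the tag counts was not tested. Over 188 pairs the median L-Pha count was 648.5 UMIs in MC38-Ova members and 869.5 in B16-Ova members, the PD-1 tag 21 and 27, and the Tim-3 tag 23 and 25.5. In 1032 pairs of score-0 cells, with median depths of 6242.5 and 6246 RNA UMIs, L-Pha was 321 in MC38-Ova and 337 in B16-Ova. The tumours thus differed in L-Pha more among members than among score-0 cells, and the difference between these differences was not tested.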

How the data were processed

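Tumour-infiltrating T cells of both tumours were profiled together by SUGAR-seq, which reads RNA, hashtags, antibody tags and a lectin tag in the same cells, in 1 capture with the 10x Genomics 5′ protocol, per the labels. The deposited matrix holds raw UMI counts of 31053 genes, 2 hashtags and 3 tags in 19912 barcodes (169579110 RNA UMIs), made by the authors with Cell Ranger 3.1.0 on mm10, per the submitters' processing notes. The file header names software version 3.0.2, and R 3.6.1 and Seurat 3.1.0 are also in the notes. The receptor sequencing library of the same cells was not used here.

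Cells were kept with at least 500 genes, at most 10% mitochondrial UMIs and 1 hashtag of at least 150 UMIs and 3 times the other. UMIs were summed per pool (members 3311589 in MC38-Ova and 5146971 in B16-Ova, score-0 cells 11465493 and 7142424) and given as CPM, with exact conditional 95% intervals of the ratio and a floor of 3 counts for log2 ratios. A gene was past 2-fold only if it was so in the same direction in both pools. Named genes were the 12 highest and 12 lowest in each comparison at 50 CPM or more, without receptor segments, mitochondrial, ribosomal protein and sex-linked genes, up to 5 genes a list by size, and the genes a list is known by. In the comparison of tumours the same rule was also applied without carriers. Doublets beyond barcodes with both hashtags were kept in the main values. Scrublet in scanpy 1.11.5 with an expected rate of 26.3% gave doublet scores for an alternative. Its own calls were not used. The highest scores of each pool were left out, 1524 MC38-Ova and 935 B16-Ova cells. These numbers were set from the 2388 barcodes with both hashtags and the pool sizes. Members and gene lists were chosen with earlier results of these data known. Promoters came from RefSeq, and gene coordinates from GENCODE on GRCm38. The procedure was tested on simulated data, with gene counts drawn without variation between cells. Genes held by few cells were thus not covered by that test. Python 3.11.15, numpy 2.4.6, scipy 1.17.1, pandas 2.3.3 and matplotlib 3.10.9 were used.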

Additional observations from a re-analysis of the deposited data

Results flagged for a closer look

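The proliferating over score-0 ratio of Gzme, a granzyme gene, pointed down in MC38-Ova and up in B16-Ova, with log2 ratios of -1.19 and 1.57. The difference between the pools was not tested. Most B16-Ova Gzme UMIs of members were in few cells: 57.7% of 433 UMIs lay in 3 cells, and 21 members held any. At matched depth the ratios were -3.54 and 0.54.

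The exhaustion list had a median log2 ratio of -0.42 in MC38-Ova and 0.19 in B16-Ova. This difference was not tested either. All genes had medians of 0.05 and 0.10. Without carriers at matched depth the list medians were -0.47 and 0.08, against 0.06 and 0.07 for all genes, with a ratio above 1 in 0 of 18 genes in MC38-Ova and 11 of 18 in B16-Ova.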

How the results depend on the processing

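Of the main results under all alternatives, 175 values kept their direction and size, 48 moved and 1, which was past 2-fold, reversed. Of the tag ratios, 12 came to lie on the other side of 1. No median of the main lists (S set, G2/M set, exhaustion, naive and memory) changed sign. Among the other lists, ribosome biogenesis in both pools and glycolysis and hypoxia in MC38-Ova did so without carriers at matched depth, as given above. The share of proliferating cells was 11.8% in MC38-Ova and 19.5% in B16-Ova at a score of at least 3, and 5.19% and 9.93% at 10. It was 7.38% in MC38-Ova without the highest Scrublet scores, 17.3% in B16-Ova with at least 4 CD8 UMIs, and 12.8% in B16-Ova at 3000 UMIs per cell. The 374 higher genes became 777 with a filter of 10 UMIs and 853 at 1.5-fold. The 47 lower genes became 31 at a score of at least 3, 76 without the highest Scrublet scores, 29 with at least 4 CD8 UMIs, 21 at matched depth, 16 also without carriers, 151 with a filter of 10 UMIs and 307 at 1.5-fold. Between tumours the filter of 10 UMIs gave 949 higher and 478 lower genes, and 1.5-fold gave 524 and 345.

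In MC38-Ova the exhaustion median was -0.27 at a score of at least 3, -0.70 at 10 and -0.30 without carriers. The naive and memory median there was -0.27 at matched depth and -0.28 also without carriers. At matched depth the tag ratios in MC38-Ova and B16-Ova were, for L-Pha, 1.07 and 1.33, for the PD-1 tag 0.864 and 1.18, and for Tim-3 0.846 and 1.13. Also without carriers they were 1.06 and 1.36, 0.905 and 1.18, and 0.846 and 1.13. Per 1000 RNA UMIs they were 0.843 and 0.968, 0.561 and 0.591, and 0.548 and 0.493, so all 6 ratios lay below 1. Per 100 own-hashtag UMIs they were 1.28 and 2.18, 0.876 and 1.26, and 0.855 and 1.03. Gzmc in B16-Ova was -0.047 at matched depth and -0.049 also without carriers, on the log2 scale. Other named genes gave 51 values no longer past 2-fold, 14 newly past it in the same direction and 967 counted as unchanged. The 967 include values that were not past 2-fold in the main run and changed direction, such as Gzma in B16-Ova without carriers at matched depth. The filter and fold act through more genes; the cause of the other moves was not tested.

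No paired analysis was possible because each tumour is 1 pool and no replicate numbers exist. Depth limits the low genes most, and intervals cover counting error only, since 1 pool a tumour gives no spread between animals.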

Other observations

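The T cell receptor β segments read in the RNA were described for members with a leading segment, which were 166 of 217 in MC38-Ova and 229 of 275 in B16-Ova. In MC38-Ova members Trbv12-1 led in 17.5% and Trbv14 in 10.8%, against 14.6% and 9.50% of 1211 score-0 cells. In B16-Ova members Trbv13-2 led in 19.7% (14.7 to 25.4), Trbv19 in 14.0% and Trbv12-1 in 12.7%, against 12.8% (10.5 to 15.3), 9.10% and 9.99% of 791 score-0 cells. The effective number of segments, the inverse Simpson index, was 12.99 in MC38-Ova members against 14.0 in score-0 cells, and 10.1 in B16-Ova members against 13.9. By this index segment use was more uneven in B16-Ova members than in the score-0 cells, but the Trbv13-2 intervals overlapped. The index tends to be lower in a smaller group, and no interval or value at equal cell numbers was computed. The clones behind segment use were not analysed here.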
